A study of Mus musculus with 6 samples.

Results

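Pax3, Lbx1, Eya1, Msc, Barx2 and Tcf12 are transcription factors, or in the case of Eya1 a coactivator, that act in the skeletal muscle lineage. Their expression was compared between dividing and differentiated cultures of adult mouse satellite cells, the stem cells of muscle. The 6 genes were selected by gene symbol, and each had 1 feature on the array out of 10500. The donors were 3 adult male mice of the Swiss Webster stock, whose hind limb muscles supplied the cells, and every mouse gave 1 proliferating and 1 differentiated culture, so that there were 3 arrays in each group and the replicate number is the mouse. Per the labels, both kinds of culture were first expanded with basic fibroblast growth factor at 6.6 ng/ml, after preplating on plastic that removes fibroblasts. Proliferating cultures were harvested at that point, whereas differentiated cultures then were left for 72 hours without the growth factor, in medium to which 10% horse serum and insulin (given as 1 mM) had been added. The cultures were mixes of myoblast clones from several hind limb muscles, pooled within a mouse.

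In the embryo, Pax3 marks the muscle precursors that leave the somites and works upstream of the myogenic regulatory factors Myf5 and Myod1, and Lbx1 guides the precursors that migrate into the limb. Eya1 is a coactivator and phosphatase that works with homeodomain proteins of the sine oculis family on early myogenic genes. The others act within the committed cell: Msc (musculin, also MyoR) is a basic helix-loop-helix repressor found in undifferentiated myoblasts, Barx2 is a homeodomain factor of satellite cells, and Tcf12 (HEB) is an E protein, the class of partner that myogenic factors need in order to bind E-boxes, the CANNTG motif of muscle gene promoters. Id proteins, such as Id3, sequester E proteins.

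Values are array intensities on a linear scale with a median between 0.883 and 0.939 on every array, and the precision is limited by the number of arrays. Intensities of different features cannot be ranked against each other as amounts of RNA, since features differ in how well they hybridise. The cultures followed their labels: the summed intensity of 8 markers of dividing cells was 59.9 to 90.3 in proliferating and 3.76 to 6.85 in differentiated cultures. The summed intensity of 11 markers of differentiated muscle was 891, 125 and 367 in the proliferating cultures of mice 1, 2 and 3, and 2137, 1602 and 1642 in the differentiated ones. The proliferating cultures thus differed widely in muscle transcripts, with the highest sum in mouse 1 and the lowest in mouse 2. The difference of each factor is also given without proliferating replicate 1, the one with the highest sum. That array also had the most values at or under 0, 89 against 13 to 50 on the others. Each culture is a bulk sample, in which fewer cells of a type and less RNA per cell cannot be told apart.

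Tcf12 was the only one of the 6 factors whose 2 groups did not overlap. Its differentiated values were the lower ones, a separation that 9.8% of 10128 features with 6 values had in that direction. The share for both directions together was not counted. For this gene the promoter windows, from RefSeq (GRCm38.p6, minus strand of chromosome 9), list 3 transcript starts. The first of these and the internal one lie 215723 bases apart. The annotated gene extends upstream of the first listed start. The array feature does not show which start its transcripts came from. Stretches before these starts are given, with E-boxes in capitals. Of the 6 factors, only Tcf12 had windows among the promoter sequences used here, so no sequence is given for the others. The first lies at chr9:72111894-72112069, wholly outside the annotated gene. It stops at the edge of that gene, at 72111893, and so does not reach the listed start at 72111819. The bases between are not printed. The second lies at chr9:71896096-71896346, within the gene and ending on the first transcribed base.

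Tcf12, before the first listed start: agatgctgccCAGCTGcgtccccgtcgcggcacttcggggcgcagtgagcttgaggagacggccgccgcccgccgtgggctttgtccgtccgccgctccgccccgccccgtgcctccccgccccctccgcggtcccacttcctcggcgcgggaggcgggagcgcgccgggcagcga
Tcf12, before the internal start: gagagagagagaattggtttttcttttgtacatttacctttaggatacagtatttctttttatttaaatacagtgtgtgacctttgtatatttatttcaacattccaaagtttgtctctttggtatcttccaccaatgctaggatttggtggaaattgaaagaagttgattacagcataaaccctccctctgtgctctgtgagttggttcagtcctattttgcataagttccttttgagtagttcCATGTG

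The motif searched was CANNTG, which reads the same on both strands. The full 300-base windows of the 3 starts held 1, 2 and 1 matches, and 72.31% of all 32851 promoter windows in the table hold at least 1. The form CAGCTG, present before the first start, occurs in 16.3% of the windows. A match to such a common motif is a description of the sequence and no evidence of a bound site.

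The Tcf12 intensity was 17.2, 11.0 and 14.9 in the dividing cultures of mice 1, 2 and 3 and 7.58, 5.75 and 7.93 in their differentiated cultures. Every differentiated value lay below every proliferating value, and the mouse with the lowest value was the same in both conditions. The mean was 14.4 ± 3.13 (SD, n = 3) against 7.09 ± 1.17 (SD, n = 3). The log2 difference, differentiated minus proliferating, was -1.01 ± 0.41 (SE), or 2.02-fold lower, with a 95% interval from -1.97 to -0.06. It was -1.19, -0.94 and -0.91 within mice 1, 2 and 3, and without proliferating replicate 1 it was -0.87. The difference did not pass over all 10186 features tested with limma (adjusted p = 0.304). With mouse as a random effect the interval narrowed to -1.66 to -0.37, and the adjusted p in limma was 0.0583, still above the threshold of 0.05. With mouse as a fixed block it was 0.118 (limma, adjusted).

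Separation of the groups was common on these arrays, so that the pattern of Tcf12 has to be read against all features. Of 10128 features with 6 values, 9.8% had every differentiated value below every proliferating one, and 18% were lower in 3 of 3 mice. The spread of Tcf12 was small: the pooled SD of its log2 values within groups was 0.29. That was at the 7.96th percentile of all features, dim ones included, whose median SD was 0.67. Tcf12 was a bright feature, at the 83.9th percentile of the arrays on average, and its spread was not compared with features of similar brightness. Its absolute difference was at the 75.8th percentile. The features that limma called at an adjusted p under 0.05 all had differences of at least 2.19 in size, against -1.01 for Tcf12.

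**Figure D1:**
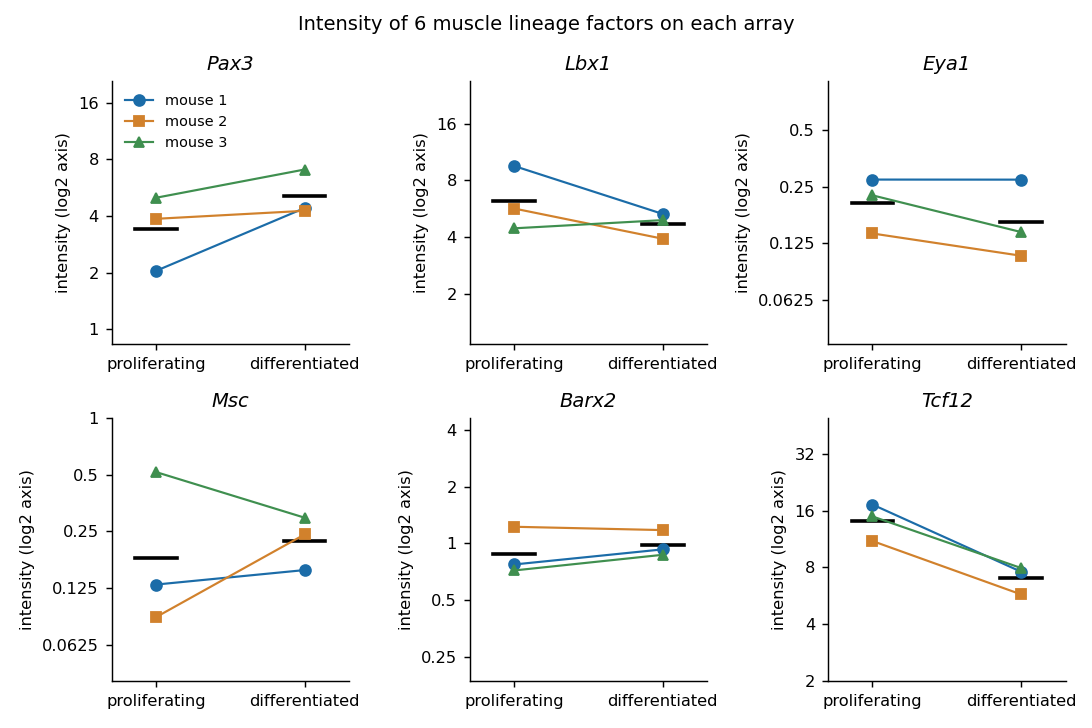
Intensity (log2 axis) of each factor on the 6 arrays, with 1 line per mouse from its proliferating to its differentiated culture and black bars at the mean of the log2 values. Tcf12 goes down in 3 of 3 mice with no overlap of the groups, while the other 5 factors overlap; each panel spans the same fold range.

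None of the 6 factors passed the test (limma, 0 of 6, against 1.3% of all features), and 1 of 6, Tcf12, had an unadjusted p under 0.05, against 14.9% of all features. With mouse as a fixed block or as a random effect, limma again called 0 of the 6, where 1.43% and 10.3% of all features passed. Of the fits chosen after seeing the data, 2 called Tcf12 lower. Quantile normalization together with mouse as a random effect gave -1.17 (limma adjusted p = 0.0418), and a pseudocount together with that block gave -0.99 (limma adjusted p = 0.016). These calls rest on the combination, since the normalization, the pseudocount and the block each left Tcf12 short of the threshold on their own, and median centring with that block did so too (limma adjusted p = 0.0596).

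Pax3 and Lbx1, the factors of the migrating precursor, stood on average at the 72.6th and 76.1st percentile of their arrays. No detection call was used, so their expression as such was not tested. For Pax3 the intensity was 2.05, 3.87 and 5.00 in the dividing cultures of mice 1, 2 and 3 and 4.41, 4.26 and 7.07 once differentiated. It was higher in the differentiated culture of every mouse, as were 31% of all features, but the 2 groups overlapped. The log2 difference was 0.58 ± 0.49 (SE; limma adjusted p = 0.664), with a 95% interval from -0.55 to 1.72, or 0.682-fold to 3.29-fold. With mouse as a random effect the interval ran from -0.19 to 1.36 (limma adjusted p = 0.306). Much of the difference came from the proliferating culture of mouse 1, the lowest of the 6 values, without which it was 0.21. Without proliferating replicate 3 it was 0.86 and without differentiated replicate 3 it was 0.35, and the sign held in each of these fits.

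Lbx1 stood at 9.53, 5.67 and 4.45 in the dividing cultures of the 3 mice and at 5.30, 3.92 and 4.92 in the differentiated ones (intensity). The same proliferating culture of mouse 1 that was lowest for Pax3 was highest for Lbx1, and the other 5 arrays lay between 3.92 and 5.67. The differentiated cultures differed little among themselves, with an SD of 0.23 on the log2 scale against 0.56 in proliferating ones. The log2 difference was -0.41 ± 0.45 (SE; limma adjusted p = 0.752), and its 95% interval ran from 0.366-fold to 1.55-fold. With mouse as a random effect the interval was -1.15 to 0.33 on the log2 scale (limma adjusted p = 0.45). Lbx1 was lower in 2 of 3 mice, and without proliferating replicate 1 the difference was -0.10.

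Eya1, the coactivator, gave a dim feature. Its intensity was 0.273, 0.141 and 0.225 in the dividing and 0.273, 0.108 and 0.144 in the differentiated cultures. On average these values stood at the 26.6th percentile of their arrays, near the 25th percentile of positive values, an intensity of 0.179, so that background limits the size of any change seen. Mouse 1 had nearly equal values in both cultures, with a log2 difference of -0.0012, while mice 2 and 3 had differences of -0.39 and -0.65. The value of mouse 1 stood at the 35.3rd percentile of its proliferating array but at the 27.0th of its differentiated one. Equal intensities at this dim end thus do not mean equal ranks. The mean difference was -0.35 ± 0.51 (SE; limma adjusted p = 0.83), and it ranged from -0.72 without differentiated replicate 1 to -0.05 without differentiated replicate 2. Without proliferating replicate 1 it was -0.14.

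Msc, the repressor of myogenic factors, was also dim, and the most variable of the 6. Its intensity was 0.131, 0.0877 and 0.517 in the dividing and 0.156, 0.241 and 0.296 in the differentiated cultures, at the 24.3rd percentile of the arrays on average. The highest and the lowest of the 6 values were both proliferating cultures. Differences within mice were 0.26, 1.46 and -0.81, which do not share a direction, and the pooled SD of 1.01 was at the 77.6th percentile of all features. In mouse 1 the intensity was higher in the differentiated culture, but its percentile of the array was lower, 9.44 against 16.7. After quantile normalization the log2 difference over all 6 arrays was 0.06. The log2 difference of 0.30 ± 0.69 (SE; limma adjusted p = 0.896) became 1.06 without proliferating replicate 3, was 0.07 without proliferating replicate 1 and turned to -0.22 without proliferating replicate 2. The 95% interval from 0.41-fold to 3.71-fold leaves changes of either direction within these data. With mouse as a random effect the interval ran from -0.84 to 1.45 on the log2 scale (limma adjusted p = 0.735).

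Barx2, the homeodomain factor of satellite cells, was the steadiest of the 5 factors with overlapping groups. Its intensity was 0.771, 1.22 and 0.717 in the dividing and 0.927, 1.17 and 0.868 in the differentiated cultures. Mouse 2 had the highest value in both conditions, and the order of the mice was the same in each. The log2 difference was 0.16 ± 0.43 (SE; limma adjusted p = 0.908), with a pooled SD of 0.34, at the 11.9th percentile of all features. Its 95% interval ran from 0.567-fold to 2.21-fold, or, with mouse as a random effect, from -0.50 to 0.82 on the log2 scale. Without proliferating replicate 1 the difference was 0.07, and it lay between 0.02 and 0.40 on leaving out any 1 array.

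**Figure D2:**
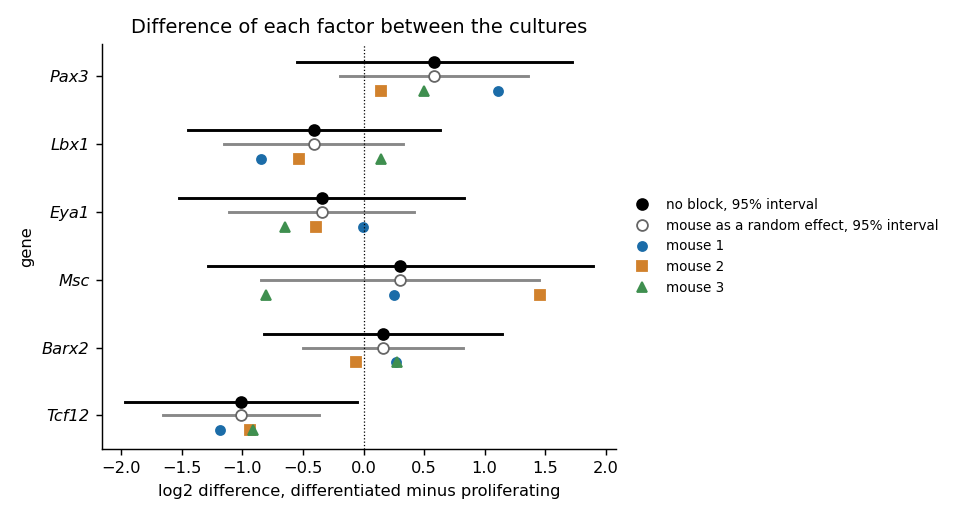
Log2 difference of each factor, differentiated minus proliferating, with its 95% interval without a block (filled circles) and with mouse as a random effect (open circles), above the difference within each of the 3 mice. The intervals of Tcf12 lie below 0 in both fits, from -1.97 to -0.06 and from -1.66 to -0.37, and those of the other 5 factors include 0.

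All of these differences stand on arrays where the median feature was itself higher in differentiated cultures, by 0.20 on the log2 scale without further scaling and by 0.04 after quantile normalization. Relative to that median, Tcf12 was at -1.22 and -1.20 in the 2 scalings, Pax3 at 0.38 and 0.45, Lbx1 at -0.62 and -0.51, Eya1 at -0.55 and -0.66 and Msc at 0.10 and 0.02. Barx2 lay at -0.04 and 0.13, so that its side of the median turned with the scaling.

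**Figure D3:**
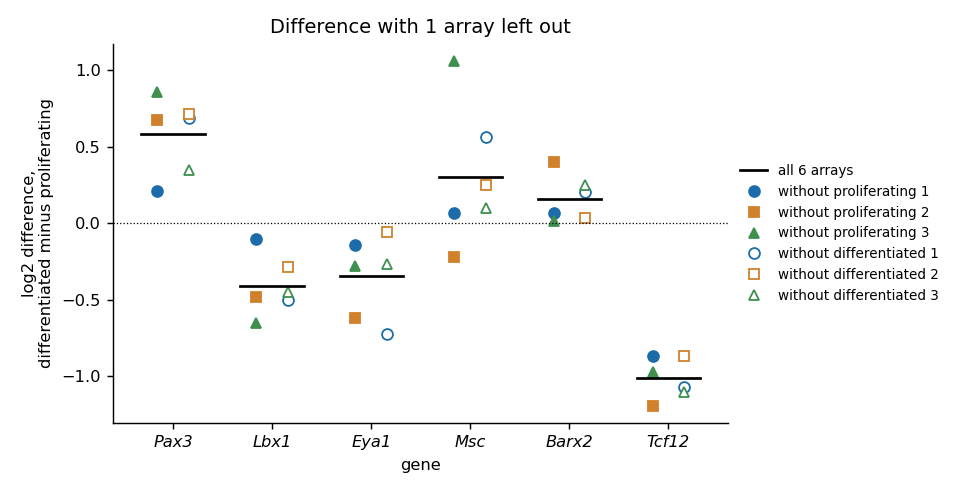
Log2 difference of each factor, differentiated minus proliferating, over all 6 arrays (black lines) and with 1 array left out (symbols by mouse, filled for a proliferating and open for a differentiated array). Tcf12 stays between -1.19 and -0.87, Pax3 and Lbx1 move toward 0 without proliferating replicate 1, and Msc crosses 0 without proliferating replicate 2.

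Relatives of the 6 factors gave no call without a block either. Of 9 other genes of the sine oculis, Eya and Dach families, 4 were measured under these names, and 0 passed in limma, with a median difference of 0.44. Eya3, the broadly expressed relative of Eya1, stood at 5.81, 9.02 and 8.14 in the dividing and at 7.82, 11.1 and 12.9 in the differentiated cultures (log2 difference 0.46, limma adjusted p = 0.696). Every mouse had the higher value in its differentiated culture, with overlapping groups. Of 11 other paired and homeobox factors of muscle precursors, 8 were measured and 0 passed, with a median of 0.11. Prrx1, a homeobox factor of limb mesenchyme, had the smallest p, with intensities of 0.736, 0.614 and 1.62 against 2.95, 2.19 and 2.48. Its groups did not overlap, with the differentiated values higher. The share of all features separated in that direction was not counted, and 31% were higher in 3 of 3 mice. The log2 difference of 1.48 for Prrx1 passed in limma once mouse was a random effect (adjusted p = 0.0414). It did not pass without a block (adjusted p = 0.209) or with mouse as a fixed block (adjusted p = 0.114).

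Pitx3, a homeobox factor of differentiating muscle singled out after its values were seen, resembled Tcf12 in size and direction. Its intensity was 18.4, 15.9 and 13.2 in the dividing and 7.76, 4.69 and 9.53 in the differentiated cultures. Every differentiated value lay below every proliferating one, with a log2 difference of -1.16 (limma adjusted p = 0.276 without a block, 0.144 with mouse as a fixed block and 0.0641 as a random effect).

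Among 9 measured E proteins, Id proteins and other basic helix-loop-helix factors, 0 passed without a block and the median difference was -0.39, with 3 lower and 1 higher in 3 of 3 mice, against the 18% and 31% of all features. Id3, the antagonist of E proteins, stood at 87.9, 52.1 and 52.4 in the dividing and at 24.1, 17.5 and 12.5 in the differentiated cultures. All differentiated values lay below all proliferating ones, and the log2 difference was -1.83 (limma adjusted p = 0.105 without a block). It passed with the random effect of mouse (limma adjusted p = 0.0115) and not with the fixed block (adjusted p = 0.0597). Id3, named for the smallest p of its list, and Tcf12 were each lower in 3 of 3 mice, as were 18% of all features. A link between the 2 genes was not tested. The related E protein Tcf4 had intensities of 1.88, 5.61 and 3.54 against 2.40, 9.55 and 5.58, a log2 difference of 0.59 (limma adjusted p = 0.749). Its value was higher in each mouse's differentiated culture, the opposite side of 0 from Tcf12, although the mice differed more from each other than the 2 conditions did. Twist2, a repressor of myogenic factors, gave a dim feature, at the 28.0th percentile of the arrays on average. Its intensities were 0.422, 0.871 and 0.183 against 0.0264, 0.188 and 0.0898, lower in 3 of 3 mice but with overlapping groups. The lowest of these values was near the floor of 0.0236, which limits how far the log2 difference of -2.41 can be read. Twist2 passed in limma only with the random effect of mouse (adjusted p = 0.0445, against 0.227 without a block and 0.11 with the fixed one). Tcf21, the closest relative of Msc and with it a factor of head muscle, had intensities of 77.6, 66.5 and 38.5 against 188, 62.0 and 48.9. Its groups overlapped, and the one high value was the differentiated culture of mouse 1. Of 4 head muscle factors 3 were measured, Tcf21 among them, and 0 passed, with a median of 0.81. Nkx2-5, a homeobox factor of the heart and pharynx, had the smallest p (log2 difference 0.81, limma adjusted p = 0.639), from a mean intensity of 0.0921.

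Of 5 measured myogenic regulatory and Mef2 factors, 0 passed without a block, with a median of 1.36. With mouse as a fixed block, and also as a random effect, 2 passed. These were Mef2c and Myf6, with log2 differences of 2.95 and 2.74. For Mef2c the adjusted p in limma was 0.082 without a block, 0.0495 with the fixed block and 0.00731 with the random effect, and for Myf6 it was 0.0978, 0.0495 and 0.00838. Myod1, with which Tcf12 pairs, had intensities of 154, 146 and 134 against 86.4, 88.1 and 84.0 (log2 difference -0.74), and its adjusted p in limma was 0.418 without a block, 0.184 with the fixed block and 0.113 with the random effect. The myogenic regulatory factors did not share a direction. Myog had a log2 difference of 1.36 and Myf5 one of -0.26 (limma adjusted p = 0.467 and 0.944 without a block).

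Genes that Pax3 and Lbx1 are known to act on, or that steer the migrating precursor, gave 0 calls without a block and 0 with mouse as a fixed block among the 7 measured of 10 (limma), and 3 with the random effect, against 10.3% of all features. Their median difference was 0.33, and 3 were higher and 3 lower in 3 of 3 mice, where 31% and 18% of all features were. Cxcl12, the chemokine that guides migrating precursors, stood at 6.84, 5.19 and 5.61 in the dividing and at 0.953, 0.223 and 0.997 in the differentiated cultures. The groups were far apart, and the log2 difference of -3.29 missed the threshold without a block and with the fixed one (limma adjusted p = 0.0536 and 0.0561). It passed with the random effect of mouse (limma adjusted p = 0.00713). Met, the receptor whose gene Pax3 activates in the embryo, had intensities of 3.73, 3.01 and 5.31 against 1.74, 1.56 and 2.10. It was thus lower in the differentiated culture of every mouse, whereas Pax3 was higher in every one, and it passed only with the random effect of mouse (log2 difference -1.13, limma adjusted p = 0.0449, against 0.266 without a block and 0.104 with the fixed one). Itm2a, a membrane protein that Pax3 is reported to control in mouse muscle, had intensities of 139.5, 35.0 and 40.8 against 358, 209 and 335, a log2 difference of 2.32 (limma adjusted p = 0.117 without a block, 0.0727 with mouse as a fixed block and 0.0162 as a random effect).

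**Figure D4:**
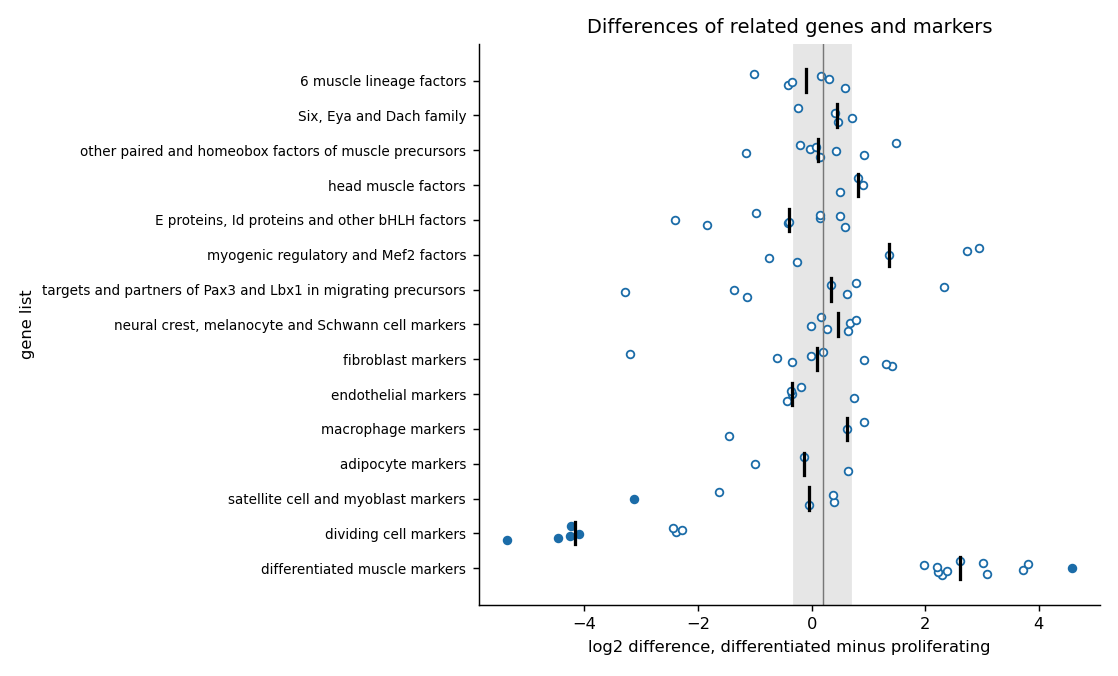
Log2 difference, differentiated minus proliferating, of the 6 factors and of each measured gene of 14 lists, filled where limma gave an adjusted p under 0.05, with black bars at the list medians. The grey band runs from the lower to the upper quartile of all features and the grey line their median of 0.20; the factors and their relatives lie mostly in or near the band, whereas markers of dividing cells and of differentiated muscle lie outside it.

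The 6 factors had a median log2 difference of -0.09, against 0.20 over all features, and markers of the culture state lay much farther from 0. Of 8 markers of dividing cells 5 fell without a block (limma), Top2a, Ccna2, Ccnb2, Cdk1 and Tk1, with a median of -4.17 over the list. With mouse as a fixed block 3 of the 8 passed, where Cdk1 and Tk1 did not (limma adjusted p = 0.0516 and 0.0664), and the random effect let 8 of 8 pass. Of 11 markers of differentiated muscle, 1 rose without a block or with the fixed one, Tmod4, and 9 did with the random effect. Their median was 2.62, and 11 of 11 were higher in 3 of 3 mice. Of 5 measured satellite cell and myoblast markers, Vcam1 fell by 3.13 on the log2 scale (limma adjusted p = 0.0335), and the median was -0.05.

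Pax3 is also a gene of the neural crest, and several of the factors are found in other cells, so markers of those cells were measured beside them. Of 13 neural crest, melanocyte and Schwann cell markers 6 were measured, 3 of them dim in both groups, with a summed intensity of 2.32 to 3.09 in proliferating and 2.41 to 5.16 in differentiated cultures. Ednrb had the smallest p (log2 difference 0.68, limma adjusted p = 0.662), and Foxd3, at 1.64 to 3.82 on the 6 arrays, made up most of the sum. Summed intensities of 8 fibroblast markers were 3.44 to 4.94 against 1.95 to 2.22, a sum that follows Fbln1, a matrix protein with a mean of 2.89 against 0.383 (log2 difference -3.20). Fbln1 passed with the random effect (limma adjusted p = 0.0114) but not without a block (0.0649) or with the fixed one (0.076). The other fibroblast markers lay on both sides of 0: the median of the list was 0.10, and Pdgfra, with a difference of 1.42, and Col1a2 were higher in 3 of 3 mice. The sums of 5 endothelial markers were 0.412 to 0.825 against 0.422 to 0.947, those of 3 macrophage markers 0.374 to 1.33 against 0.312 to 0.879, and those of 3 adipocyte markers 0.728 to 4.15 against 1.80 to 1.98. The genes with the smallest p in these lists were Cdh5, Cd14 and Pparg, with log2 differences of 0.75, -1.46 and 0.64, each on the other side of 0 from the median of its list, which was -0.35, 0.61 and -0.14. Of the 5 lists of other cell types, 0 genes passed without a block or with the fixed one (limma), and 1, Fbln1, passed with the random effect. The part of such cells in the values of the 6 factors was not tested.

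Genes with the most similar pattern were looked up among 4646 other named genes, as the 3 with the highest Pearson correlation of log2 values over the 6 arrays, which share 3 mice. With 6 points and so many genes, high correlations are common, and they are given as a description. Tcf12 was closest to Smad2 (r = 0.99), a mediator of TGF-beta signals, Ephb6 and Clcn5, whose log2 differences were -0.63, -1.96 and -1.04. Of these Ephb6, an Eph family receptor, passed in limma with the random effect of mouse (adjusted p = 0.0148) but not without a block (adjusted p = 0.126) or with the fixed one (adjusted p = 0.0628). Pax3 was closest to S100a8, Cdk11b and Adcyap1, with r between 0.96 and 0.97, and Lbx1 to Cd53, Fam126a and Nfkbie, with r between 0.97 and 0.99. Eya1 was closest to Copb1, Asah1 and Dmtf1, with r between 0.98 and 0.99, and Barx2 to Ybx1, Rps6 and Hsd17b1, with r between 0.98 and 0.99. Msc had the loosest matches, Pip4k2a, Ranbp9 and Git2, with r between 0.91 and 0.93.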

How the data were processed

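Total RNA from 6 cultures was turned into biotinylated cRNA and read on CodeLink arrays with 1 colour, per the labels' protocols. The authors deposited an intensity per feature, on a linear scale. Bacterial control mRNAs served intensity normalization, per the labels' protocols, while the scanner software, the background method and the scaling step were not given in the sources used here. Some values are at or under 0, and no detection call was used.

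Intensities below 0.0236, which is where the lowest 1% of positive values ended, were raised to it before log2. Array medians differed by less than 0.2 on that scale, so the arrays were not scaled further. The linear model of limma 3.58.1 (R 4.3.3; lmFit, eBayes) had culture condition as its single term. It was run on the 10186 features with 2 or more values in each group, p-values were adjusted over all of them by Benjamini-Hochberg, and the threshold was 0.05. The procedure was tested on simulated data. Platform symbols were checked through their Entrez IDs in RefSeq's GRCm38.p6 genes (6373 of 6373 features with a symbol matched, 0 changed), and promoter sequences, from RefSeq on that assembly, were listed for Tcf12.

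Both cultures came from the same mouse, per the series' design, so the numbers pair the arrays. Deviations from group means correlated at 0.42, 0.37 and 0.28 within mice. The main test had no block because no method was stated, and mouse as a fixed block or random effect (correlation 0.535) was an alternative. The main intervals therefore do not use the pairing, and those with the random effect were narrower for each factor. The members and lists were chosen with earlier results of these data known. From each list, genes that passed were named, or the 1 with the smallest p, and for the members the 3 closest patterns among features above the 25th percentile of mean level. Pitx3, Tcf4, Tcf21, Twist2, Myod1, Myog, Myf5, Myf6, Met, Itm2a, Foxd3, Pdgfra and Col1a2 were added after their values were seen. Genes of the lists that were not measured under these names were not analysed here.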

Additional observations from a re-analysis of the deposited data

How the results depend on the processing

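Of the 6 factors, 5 kept their direction under every alternative run, and Msc turned to -0.22 without proliferating replicate 2 and to -0.27 without both arrays of mouse 2. The cause was not tested. Tcf12 passed at -1.17 and -0.99 in 2 fits chosen after seeing the data, quantile normalization or a pseudocount with mouse as a random effect. In all other fits no factor passed (Tcf12: limma adjusted p of 0.0583 to 0.686). On leaving out 1 array or 1 mouse, differences ranged from -1.19 to -0.87 for Tcf12, 0.21 to 0.86 for Pax3, -0.69 to -0.10 for Lbx1, -0.72 to -0.05 for Eya1, -0.27 to 1.06 for Msc and 0.02 to 0.40 for Barx2. Leaving out the dimmest 33.3% of features removed Eya1 and Msc. Each factor had 1 feature, so another feature per gene could not be tried for them.

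Counts of all features called, 29 higher and 103 lower, and of genes of the lists, 1 and 6, changed as follows. A higher floor, the 10th percentile, let 65 and 178 features pass. A pseudocount of 0.179 gave 127 and 266 features and 4 and 10 list genes. Quantile normalization gave 39 and 162 features. Without the dimmest features there were 136 and 279, with 4 and 12 list genes, and with a trended, robust prior 125 and 263, with 6 and 12. Mouse as a replicate block gave 57 and 89 features with 3 higher list genes, and as a random effect 516 and 538 with 13 and 14. That block gave 345 and 597 features with quantile normalization (6 and 15 list genes), 510 and 562 with median centring (13 and 14), and 868 and 769 with the pseudocount (15 and 17). At a stricter adjusted threshold of 0.01, 0 and 0 passed in limma, and 1519 features had an unadjusted p under 0.05. Leaving out arrays or mice gave 0 to 91 higher and 0 to 88 lower features, and 0 to 5 and 0 to 6 list genes. Without proliferating replicate 1 there were 91 and 88 features, and without differentiated replicate 1 there were 8 and 51. The 0 calls, in limma, arose without proliferating replicate 2 or 3, differentiated replicate 2 or 3, or any mouse, with 986, 1061, 1422, 1516, 1424, 854 and 920 features at an unadjusted p under 0.05. With the other settings as in the main test, neither mouse as a fixed block nor as a random effect changed a call of the 6 factors. With quantile normalization or the pseudocount, the random effect did so for Tcf12, as given above.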
